A study of Mus musculus with 20 samples.

Results

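The comparison described here is that of 2-cell with 1-cell mouse embryos, the step at which the main activation of the embryonic genome and the loss of stored maternal transcripts take place. Its members were chosen by sample title: the 4 arrays titled 2-Cell and the 4 titled 1-Cell, 8 of the 20 arrays of the series. Every probe set other than a control was considered, and 15234 of 22511 were tested after removal of dim ones. The series also profiled oocytes, 8-cell embryos and blastocysts on the same Affymetrix array, MOE430B, with 4 arrays for each of the 5 stages. This array carries probes for part of the mouse genes only, so that many known genes of this step are not on it. All arrays of both groups hold total RNA that had been amplified in 2 rounds of in vitro transcription. The labels give mouse as the organism and no treatment, strain, age or number of embryos, nor the hours after fertilization, so whether the 2-cell embryos were early or late is not known here. The labels do not say whether replicates were separate collections of embryos, so a p-value here gauges the spread among arrays only, and that spread may be technical.

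The growing oocyte makes and stores large amounts of mRNA and then stops transcribing. After fertilization the embryo first lives on this store, and in the mouse a small burst of transcription in the 1-cell embryo is followed by a large one at the 2-cell stage. Over the same interval most maternal mRNAs lose their poly(A) tails and are degraded, partly by factors that the egg itself translates from stored mRNA. Early embryonic transcripts are known to be rich in genes for making RNA and ribosomes, whereas the store is rich in genes for meiosis, the egg coat, egg activation and the subcortical maternal complex.

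Levels are the linear intensities deposited by the authors, 1 per probe set, and changes are 2-cell minus 1-cell differences of log2(intensity + 20), which understate the change of low signals. A probe set was called higher or lower at an adjusted p under 0.05 (limma, Benjamini-Hochberg over all 15234 probe sets). The fit held all 20 arrays, so its p-values and standard errors (SE) draw on the spread within every stage, not only those compared. For counts of genes, each of 7490 genes was represented by its brightest probe set on average. Because the authors scaled every array to the same trimmed mean, a level is a share of an array's signal, and a change in the RNA content of the embryo cannot be told apart from a change in that share. Whether fewer cells carried a transcript or each cell carried less of it cannot be told apart either.

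Across the 8 arrays the groups were well separated, and 1 array of each stage lay nearest to the other stage. Pearson correlations of arrays over the probe sets, a description since probe sets are no replicates, were 0.844 to 0.918 among 1-cell arrays, 0.862 to 0.878 among 2-cell arrays and 0.662 to 0.767 between the stages. On the first principal component, which held 53.2% of the variance, the 2-cell arrays scored 42.7, 56.3, 63.6 and 59.9 and the 1-cell arrays -59.4, -58.9, -55.5 and -48.6. Replicate 1 of the 2-cell stage was the lowest of its stage for 635 of the 1413 probe sets that rose at least 2-fold (44.9%) and the highest for 489 of the 988 that fell at least 2-fold (49.5%), against 27.9% and 23.8% of the probe sets that were not called. Replicate 4 of the 1-cell stage was the lowest of its stage for 459 of the probe sets that fell at least 2-fold (46.5%), against 24.6% of those not called. Among the probe sets that rose at least 2-fold it was the highest for 496 (35.1%), near the 31.4% of those not called. Without the former array 1783 probe sets were called higher and 1400 lower, and without the latter 1819 and 1387. The 3 probe sets for 18S ribosomal RNA also differed between the stages, the middle one by a log2 change of -4.20 (exact permutation p = 0.0286, the smallest possible for 4 against 4 arrays, adjusted p = 0.0571 over 6 control measures). The mean of that probe set was 37007 at the 1-cell stage, against 650.0, 2004, 3282 and 2592 for oocytes, 2-cell embryos, 8-cell embryos and blastocysts, so that the 1-cell arrays stood apart from all other stages. Psmc3ip, Pfdn6, Dscc1 and Ercc1, described further on, had their lowest mean of the 5 stages on these same arrays. They were not alone, since Cggbp1, Psmb5, Mrpl43, Utp14a, Wdr3, Mrps6 and Sdhaf3 among other risen genes named below did as well. Obox6 and Ubtfl1 instead had a lower mean in the oocyte than at the 1-cell stage. The share of such genes among all that rose was not counted. The ratio of 3' to 5' signal of Actb differed by 0.45 log2 units (exact permutation p = 0.0857) and that of Gapdh by 0.10 (exact permutation p = 0.714). The part of these controls in the results was not tested.

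At the 2-cell stage 1859 probe sets, 12.2% of those tested, were higher than at the 1-cell stage, and 1423, or 9.34%, were lower. The median change was 1.34 for the higher and -1.25 for the lower probe sets, and the largest changes were more often rises. The change was at least 4-fold, 2 log2 units, for 441 higher and 198 lower probe sets, at least 3 log2 units for 166 and 35, and at least 5 for 28 and 2. The split of the calls depended on the scaling: with arrays set to a common median 1357 probe sets were higher and 1985 lower, so that 40.6% rather than 56.6% of calls were rises, and the median change of all probe sets moved from 0.07 to -0.11. With that scaling 1078 probe sets were higher and 1342 lower by at least 2-fold, against 1413 and 988 as deposited. Over genes, with the arrays as deposited, 1005 (13.4%) were higher and 975 (13.0%) lower, with a median change of 0.02. These gene percentages are the background for every list below, with the arrays as deposited. The gene percentages under median scaling, where falls outnumbered rises among all probe sets called, are not given here. A list count under that scaling therefore has no background beside it.

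**Figure D1:**
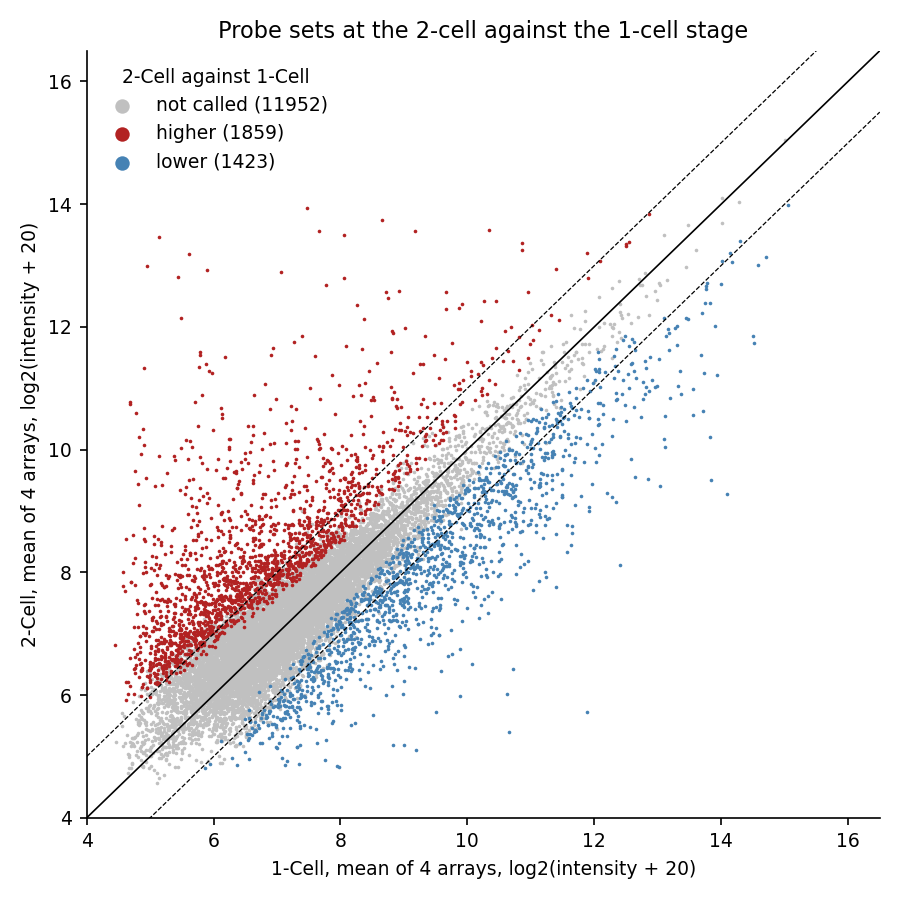
Mean log2(intensity + 20) of the 4 1-cell arrays (horizontal) and the 4 2-cell arrays (vertical) for each of the 15234 probe sets tested; red marks the 1859 called higher at the 2-cell stage, blue the 1423 called lower, grey the others, and dashed lines a change of 2-fold. Most of the red points start from low levels at the 1-cell stage, and most of the blue points from middle or high levels. Calls were made from these same values, and the filter could be passed through any stage, so the start levels are descriptions.

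The probe sets that rose and those that fell started from different levels. Those that rose by at least 2-fold, 1413 in number or 9.28% of those tested, had a median of 55.1 intensity units at the 1-cell stage and 249 at the 2-cell stage. For 613 of them (43.4%) all 4 1-cell arrays lay below the median of the whole table, 82.6, and for 428 of these 613 all 4 oocyte arrays did as well. The 988 that fell by at least 2-fold (6.49%) went from a median of 630 to one of 202, and only 159 of them (16.1%) ended below the table median on all 4 2-cell arrays. In the oocyte 856 of the 988 (86.6%) lay at or above that median on all 4 arrays. At the later stages the medians of the risen probe sets were 261 at the 8-cell stage and 208 in the blastocyst. The fallen ones went on to 133 and 158. Over all probe sets tested the medians were 129 at the 1-cell stage and 143 at the 2-cell stage. How many of all probe sets tested lay below or above the table median was not counted. The members of both sets were chosen from the 1-cell and 2-cell values, and the filter could be passed through the arrays of any stage. The start levels and the step between these stages are thus descriptions. The table carries no detection calls that would separate the lowest levels from background.

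**Figure D2:**
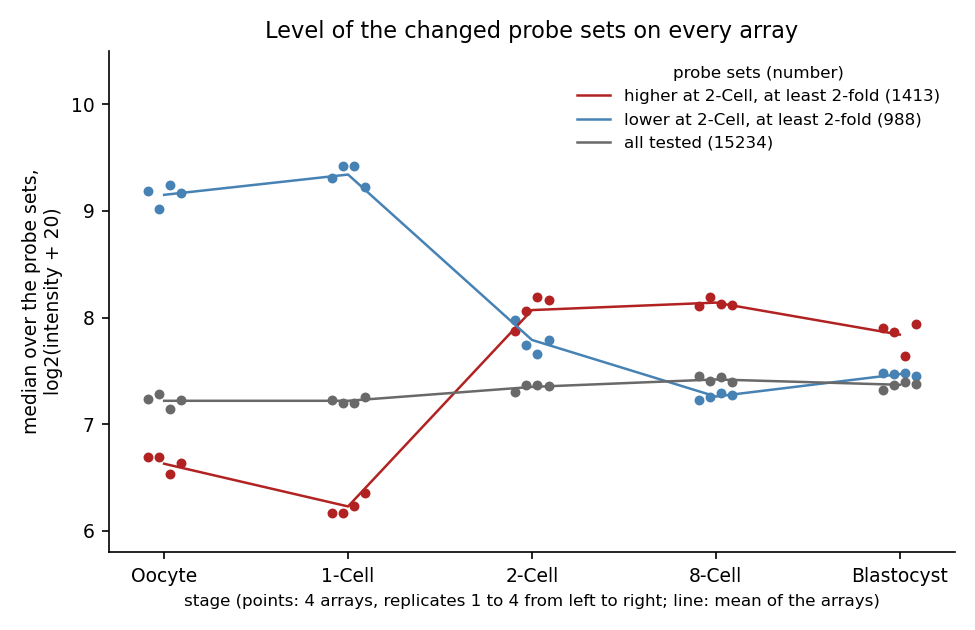
Median log2(intensity + 20) on each of the 20 arrays of the probe sets that rose at least 2-fold (red), fell at least 2-fold (blue) or were tested (grey); points are arrays and lines join the means of the 4 arrays of a stage. At the 2-cell stage replicate 1, the leftmost point, lies lowest of the 4 among the risen probe sets, at 7.87, and highest among the fallen ones, at 7.98.

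Probe sets that the platform's annotation ties to no gene or to several were less often called than those with 1 gene symbol. This held for rises and, more so, for falls. Of 4756 such probe sets 471 (9.90%) were higher and 144 (3.03%) lower, whereas of 10478 with 1 gene symbol 1388 (13.2%) were higher and 1279 (12.2%) lower. Their median intensity over all 20 arrays was 107, against 145 for the named ones. What transcripts they detect is not known here.

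The largest named rises were of genes whose probe sets lay near the bottom of the scale at the 1-cell stage. The first was Obox6, an oocyte-specific homeobox family member, which read 51.1, 49.6, 42.5 and 20.2 on the 1-cell arrays and 7923, 6919.9, 8849 and 7618 on the 2-cell arrays. The groups are far apart, with a change of 7.04 ± 0.17 (SE, adjusted p = 5.34e-19). Ubtfl1, a retrogene related to the nucleolar transcription factor UBTF and needed for preimplantation development, read 68.2, 17.5, 2.6 and 35.1 and then 3767, 4857, 5120.4 and 4483, a change of 6.66 ± 0.33 (SE, adjusted p = 1.51e-13). Btbd18, a BTB domain protein known from piRNA transcription in the testis, went from 19.8, 13.0, 77.7 and 104 to 1647, 2057, 3112 and 3252. Its 2-cell values fall into a lower and a higher pair, all well above the 1-cell values (5.27 ± 0.32 SE, adjusted p = 5.15e-12).

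Further down the list stood genes with different roles. Utp23, a factor of small ribosomal subunit assembly, read 36.3, 22.9, 20.4 and 56.6 at the 1-cell stage and 1308, 1502, 2090.4 and 2199 at the 2-cell stage, and all 3 other tested probe sets of the gene were called higher too. Plaat3, a phospholipase and acyltransferase, went from between 19.6 and 58.4 to between 1724 and 2117. Zfp217, a Kruppel-like zinc finger protein that binds corepressors, read 8.9, 9.0, 11.9 and 6.2 and then 1138, 895, 864 and 925, with little spread in either group. Cggbp1, a protein that binds CGG repeats, was above the table median on all 4 1-cell arrays, with 221, 264, 232 and 269, and reached 8281, 6735, 7319 and 6302 at the 2-cell stage. Its mean of 7159 was the highest of the 5 stages, with means of 1062 in the oocyte, 1462 at the 8-cell stage and 792 in the blastocyst.

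Genes of transport and metabolism were also among the 20 largest rises. Xpot, the nuclear exporter of tRNAs, read 14.3, 57.8, 65.3 and 17.6 and then 1238, 1257, 1344 and 1456, and its mean went on to 7200.0 at the 8-cell stage. Pgm3, which makes a precursor of UDP-N-acetylglucosamine, changed by 4.60 ± 0.21 (SE, adjusted p = 2.77e-14), from between 8.7 and 13.1 to between 572 and 954. Eid2, an inhibitor of the acetyltransferase EP300, went from between 71.3 and 143 to between 2077 and 3979.6, and Tmem120a, a protein of the nuclear envelope, from between 6.6 and 9.2 to between 376 and 1002. Bri3bp and Speer4cos rose by 4.76 and 4.59 log2 units. Psmc3ip, a partner of the meiotic recombinases, read 1281 in the oocyte, 43.8, 18.5, 82.0 and 71.0 on the 1-cell arrays and 1376.5, 1304, 2112 and 1802 on the 2-cell arrays. Its rise thus followed a low level in the 1-cell embryo and not in the oocyte, unlike that of Obox6, whose oocyte mean was 35.1.

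**Figure D3:**
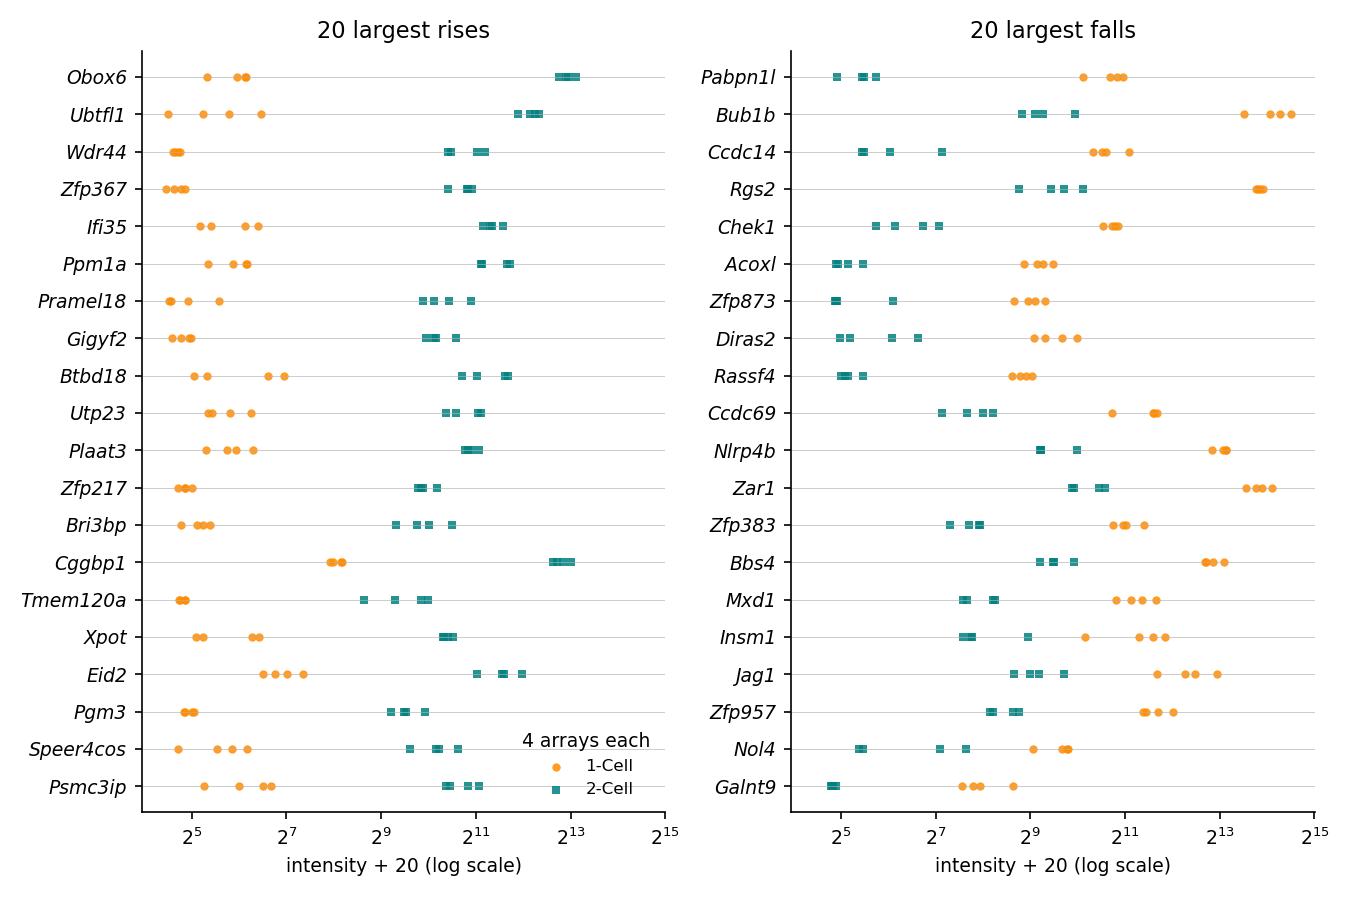
Intensity + 20 on a log scale of the 20 largest rises (left) and 20 largest falls (right) among called probe sets with 1 gene symbol; circles are the 4 1-cell arrays and squares the 4 2-cell arrays. The groups do not overlap for any gene because the choice of the genes required it; the 1-cell values of most risen genes spread widely at the low end, and the level left at the 2-cell stage differs widely among the fallen genes.

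Promoters of the changed genes were described from the RefSeq sequences of assembly GRCm38.p6, each with the 250 bases before a transcription start and the 50 after it. The 4 printed here are of genes with large changes and differ in CpG content, with capitals marking each CpG dinucleotide. They are those of Ubtfl1 at chr9:18404168-18404467 (plus strand), Utp14b at chr1:78658190-78658489 (plus strand), Tsr1 at chr11:74897830-74898129 (plus strand) and Zar1 at chr5:72581035-72581334 (minus strand).
Ubtfl1: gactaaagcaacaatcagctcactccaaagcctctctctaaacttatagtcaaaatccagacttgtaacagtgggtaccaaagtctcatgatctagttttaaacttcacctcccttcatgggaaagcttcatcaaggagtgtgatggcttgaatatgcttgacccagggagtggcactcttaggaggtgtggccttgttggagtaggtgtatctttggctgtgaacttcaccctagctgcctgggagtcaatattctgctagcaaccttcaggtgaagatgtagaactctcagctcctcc
Utp14b: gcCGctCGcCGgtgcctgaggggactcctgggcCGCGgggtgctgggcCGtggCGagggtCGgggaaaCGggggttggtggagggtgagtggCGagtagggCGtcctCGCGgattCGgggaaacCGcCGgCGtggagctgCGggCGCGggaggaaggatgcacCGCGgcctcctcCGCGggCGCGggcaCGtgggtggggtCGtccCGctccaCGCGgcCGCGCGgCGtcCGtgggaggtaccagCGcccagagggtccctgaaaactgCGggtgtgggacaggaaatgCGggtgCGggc
Tsr1: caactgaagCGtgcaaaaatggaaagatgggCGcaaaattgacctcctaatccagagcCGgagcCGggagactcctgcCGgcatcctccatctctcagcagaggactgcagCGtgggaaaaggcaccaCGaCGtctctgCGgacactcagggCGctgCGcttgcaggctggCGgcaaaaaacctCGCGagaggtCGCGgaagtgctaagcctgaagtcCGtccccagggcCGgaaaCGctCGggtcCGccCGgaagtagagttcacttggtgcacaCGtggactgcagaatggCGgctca
Zar1: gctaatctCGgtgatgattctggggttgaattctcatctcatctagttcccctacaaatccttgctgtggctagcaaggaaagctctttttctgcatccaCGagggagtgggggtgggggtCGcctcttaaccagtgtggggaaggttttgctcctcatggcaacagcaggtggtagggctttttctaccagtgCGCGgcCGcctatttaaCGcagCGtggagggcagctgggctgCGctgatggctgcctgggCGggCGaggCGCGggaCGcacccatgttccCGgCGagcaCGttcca
The promoter of Ubtfl1 held 0 CpGs, that of Utp14b 40, that of Tsr1 24 and that of Zar1 17. Of these 4 genes only Zar1 fell, so the printed promoters do not compare rises with falls.

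Among the genes that rose at least 2-fold 588 of 720 had at least 1 promoter in the table, 725 promoters in all, and 82.2% of these held 10 or more CpGs. The share was 71.8% over 680 promoters of 541 of the 662 genes that fell at least 2-fold, 67.3% over 7545 promoters of all genes tested and 43.5% over all 32851 promoters of the same length. For the 20 largest rises and falls each gene was counted once, by its promoter with the most CpGs, unlike the shares just given. Of the 16 of the 20 largest rises with a promoter 14 held 10 or more CpGs, and of the 16 of the 20 largest falls 10 did. These CpG counts ran from 0 to 49 for the rises and from 1 to 41 for the falls. The GC box GGGCGG, searched on both strands like every motif here, lay in 64.1% of promoters of risen genes, 56.6% of those of fallen genes, 53.6% of those of all genes tested and 35.7% of all promoters. The ETS site CCGGAA lay in 26.9%, 23.8%, 21.4% and 14.9% in the same order, and matches of different motifs may share letters. TATAAA went the other way, with 5.8%, 7.8%, 8.4% and 13.6%. The other shares, in the same order, were those of CCAAT (39.9%, 36.8%, 37.0% and 37.4%), the E box CACGTG (9.9%, 8.7%, 8.5% and 7.2%), the cAMP response element TGACGTCA (4.0%, 2.8%, 2.8% and 1.8%), the homeobox site GGATTA (6.6%, 5.4%, 6.1% and 7.1%) and the nuclear receptor core site AGGTCA (13.5%, 12.9%, 14.1% and 16.3%). These shares are descriptions with no test, and a match is not a site of binding. In the shares of promoters, genes with several start sites count once for each.

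Many genes for making ribosomes rose. Of 52 tested genes of ribosome biogenesis 23 rose (44.2%) and 8 fell (15.4%), against the background of 13.4% and 13.0%, and the median change of the list was 0.64 against 0.02 for all genes. The pair Utp14a and Utp14b encodes a factor of the small subunit processome, the second gene being an intronless copy of the first. Utp14b read 378, 319.9, 469 and 507 and then 5411, 5066, 6402 and 5806.5, a change of 3.71 ± 0.21 (SE, adjusted p = 1.11e-12), and its mean returned to 920.0 at the 8-cell stage. Utp14a read 301, 364, 307 and 436 and then 1444, 1706, 1923 and 2081, and its mean went on to 3206. The members thus rose together at the 2-cell stage and had different later levels.

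Other assembly factors rose too and differed in their later levels. Wdr3, of the small subunit processome, read 236, 220.0, 162 and 242 at the 1-cell stage and 2094, 2234, 3180.1 and 2061 at the 2-cell stage, and its mean went on to 7260.0 at the 8-cell stage. Tsr1, a late factor of the small subunit, changed by 3.08 ± 0.18 (SE, adjusted p = 3.32e-12), from between 339.9 and 568 to between 2939 and 5158, and reached a mean of 10136 at the 8-cell stage. Zfp622, which acts in maturation of the large subunit, went from between 16.8 and 32.9 to between 697 and 1022 and had a mean of 872 at the 8-cell stage, measured with a probe set of the x_at type that can also match other transcripts. The 8 that fell included Riok1 and Riok2, kinases of late small subunit maturation. Riok1 went from between 1171 and 2110.2 to between 399.7 and 583.5 and Riok2 from between 218 and 284 to between 49.1 and 68.8. Their relative Riok3, which is not on the list, was not called, with mean log2 levels of 11.82 and 11.40. Bms1, a GTPase of the processome, fell from between 11407 and 18904 to between 5695.5 and 8202 and kept a high mean afterwards, 9317 at the 8-cell stage and 14440.0 in the blastocyst. For Dkc1 and Nol8, which count as fallen, another probe set was called higher, and with the mean of a gene's probe sets 5 genes of the list fell instead of 8.

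The general transcription machinery shifted in the same direction with smaller steps. Of 60 genes of RNA polymerases II and III and their general factors 19 rose (31.7%) and 7 fell (11.7%), with a median change of 0.38. Ccnt1, the cyclin of the elongation kinase P-TEFb, read 11.6, 23.8, 97.0 and 63.6 and then 413, 535, 943 and 504. Cdk19, a kinase of the Mediator complex, read 31.5, 31.5, 33.5 and 34.1 and then 296, 295, 444 and 382. Both groups of arrays are clearly apart for these genes, with changes of 3.28 ± 0.32 (SE, adjusted p = 1.70e-08) and 2.81 ± 0.29 (SE, adjusted p = 6.27e-08). Gtf3c4, a subunit of the RNA polymerase III factor TFIIIC, went from between 3.4 and 19.6 to between 186 and 589.7, and Polr2f, a subunit shared by all 3 nuclear RNA polymerases, from between 1285 and 2762 to between 5274 and 6909. Among the falls, Ints12, of the Integrator complex, went from between 773 and 1149 to between 167 and 244 (-2.07 ± 0.17 SE, adjusted p = 8.07e-10) and Taf9b, of TFIID, from between 1554 and 1729 to between 429.6 and 847. Taf4b, another TFIID subunit known for its role in the ovary, rose instead, from between 845 and 1615 to between 2444 and 3499. The elongation kinases Cdk12 and Cdk13 were not called: Cdk12 changed by 0.46 (adjusted p = 0.0964) and Cdk13 by 0.00 (adjusted p = 0.998).

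For pre-mRNA splicing the balance of rises and falls depended on the scaling, as it did over all probe sets. Of 65 genes 18 rose (27.7%) and 9 fell (13.8%), with a median change of 0.16, whereas with median scaling 14 rose and 15 fell, and without replicate 1 of the 2-cell stage 16 rose and 5 fell. Snrnp35, of the minor spliceosome, went from 115, 54.1, 76.9 and 48.6 to 830.2, 823, 969.7 and 1016 (3.36 ± 0.24 SE, adjusted p = 1.13e-10). Ppil1, a prolyl isomerase of the spliceosome, went from between 8.7 and 105 to between 349 and 617 and Rbm39, a splicing coactivator, from between 44.5 and 148 to between 415 and 733. Snrnp27, of the tri-snRNP, fell from between 4838 and 6483 to between 1059 and 1819. For Srrm1 and Cdc40, which count as fallen, another probe set was called higher. Among 26 genes named Rbm, for RNA-binding motif, 8 rose (30.8%) and 3 fell (11.5%), and the largest of these rises was that of Rbm34, which read 2.3, 13.9, 13.2 and 32.5 and then 522, 738, 573 and 842.

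Chromatin genes moved in both directions. Of 122 histone modifiers and chromatin remodelers 33 rose (27.0%) and 18 fell (14.8%), with 26 in each direction under median scaling. For Brd8 and Arid4a, which count as risen, and Chd9, Kdm5c and Ep400, which count as fallen, another probe set was called the other way. Pcgf5, a subunit of a variant Polycomb complex, had the largest rise of the list, from 188, 399, 348 and 258.5 to 6203, 6108, 5211 and 3798 (4.09 ± 0.22 SE, adjusted p = 7.92e-13). The deubiquitinases of histone H2A and H2B rose as well, Usp16 from between 232 and 321 to between 855 and 919 and Usp22 from between 262 and 352 to between 1009 and 1618, and so did Kmt5b, a methyltransferase of histone H4 lysine 20, from between 110.4 and 252 to between 477 and 762. The falls included Kmt2d, a methyltransferase of histone H3 lysine 4, from between 524 and 1181 to between 172 and 263. Kdm1b, the demethylase that the oocyte needs to set up imprints, fell from between 2119 and 3538 to between 746.5 and 1129 and then to means of 154 and 129 at the 8-cell and blastocyst stages.

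The Tet genes, which encode the enzymes that oxidize methylcytosine, differed in direction. Tet3, the member known from the zygote, read 690.3, 329, 287 and 311 on the 1-cell arrays and 62.5, 175, 67.2 and 36.5 on the 2-cell arrays (-2.08 ± 0.44 SE, adjusted p = 9.84e-04). Tet1 read 62.6, 61.4, 49.8 and 112 and then 224, 260.1, 318 and 362 (1.79 ± 0.27 SE, adjusted p = 1.85e-05), and its mean reached 1997 in the blastocyst. Tet2 changed by 0.72 (adjusted p = 0.124) and was not called, and its arrays overlapped. Of the other genes of DNA methylation, Smug1, a glycosylase that removes uracil derivatives, fell from between 2352 and 2948 to between 455.5 and 641.5. Dnmt1, the maintenance methyltransferase, read 9009 on average in the oocyte, 2402.5 to 2788 at the 1-cell stage and 239.5 to 875 at the 2-cell stage, on a probe set of the x_at type. In all, 3 of 9 genes of this list rose and 3 fell, and the rises of Hells and Uhrf2 were each lost under median scaling and without replicate 2 of the 2-cell stage, which leaves 1 riser.

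The store of oocyte transcripts fell as a group. Of 39 tested oocyte and maternal-effect genes 27 fell (69.2%) and 2 rose, with a median change of -1.41. The falls include Nlrp, Fbxw and Oog genes that are counted again in the families below, so these counts overlap. Summed over the 40 genes on the array, their intensities lay between 301030 and 353112 on the 1-cell arrays and between 90925 and 169812 on the 2-cell arrays. Parts of this list were known from these data to fall, so the count is not independent evidence of its direction. The 2 risers were Taf4b, described above, and Slbp, the histone mRNA stem-loop binding protein, whose change of 0.84 was lost under median scaling and without replicate 1 of the 1-cell stage or replicate 2 of the 2-cell stage (adjusted p up to 0.0560).

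The depth of the loss differed from gene to gene. Pabpn1l, an early embryonic relative of the nuclear poly(A)-binding protein that promotes maternal mRNA decay, was all but gone, with 1094, 1807, 1628 and 1968 at the 1-cell stage and 23.8, 10.4, 33.6 and 25.1 at the 2-cell stage (-5.25 ± 0.22 SE, adjusted p = 5.40e-15). Zar1, which keeps oocyte mRNAs stored and untranslated, went from 15173, 17640.3, 13834 and 12093 to 1371, 930.0, 1506 and 951 (-3.62 ± 0.18 SE, adjusted p = 2.48e-13), so that it still lay above the table median on all 4 2-cell arrays. D6Ertd527e read 9540.0, 12436, 10858 and 9461 and then 2447, 1770.3, 1689 and 1749. In the last gene replicate 1 of the 2-cell stage stood above the other 3.

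The large oocyte gene families fell almost entirely. Of 9 tested Nlrp genes, relatives of the maternal-effect gene Nlrp5, 7 fell (77.8%) and none rose, and of 9 oocyte Fbxw genes 8 fell (88.9%) and none rose. These genes lie in clusters of close relatives and probes may be shared between copies, so that members are not independent of each other. Nlrp4b read 9001, 8993, 8549 and 7279 and then 998, 581, 572 and 581, a change of -3.63 ± 0.28 (SE, adjusted p = 3.38e-10), and Nlrp4a and Nlrp9b changed by -2.13 and -1.88. Fbxw18 went from between 10950.5 and 13021 to between 1759 and 2867 and Fbxw19 from between 14714 and 16518 to between 3557 and 5450.3. Among all 36 F-box genes, which include these and encode substrate receptors of ubiquitin ligases, 14 fell (38.9%) and none rose, with a median of -0.45. For Fbxo42, which counts as fallen, another probe set was called higher. Outside the Fbxw cluster, Fbxo30, a ligase subunit known from oocyte meiosis, fell from between 1016 and 2248 to between 396 and 473 with all 3 other tested probe sets in the same direction. With array weights 1 F-box gene was called higher.

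The Obox homeobox genes and the Pramel and Oog genes of the PRAME family, which are separate families counted together here, changed in both directions. Of 11 tested 7 fell (63.6%) and 2, Obox6 and Pramel18, rose. Obox5 read 31712, 30876, 26106 and 20409.8 and then 17875, 9339, 4554 and 8709.7, a change of -1.57 ± 0.29 (SE, adjusted p = 2.00e-04) beside the 7.04 of Obox6. Its 2-cell arrays spread widely, with replicate 1 the highest. Pramel32 fell from between 11798.5 and 15151 to between 750.3 and 2859 and Pramel13 from between 5532 and 8120.5 to between 1967 and 3727. Of 16 genes listed as activated during cleavage 6 rose (37.5%) and 3 fell (18.8%). All 3 of the falls were of Obox5, Pramel13 and Pramel34, which also belong to these families.

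**Figure D4:**
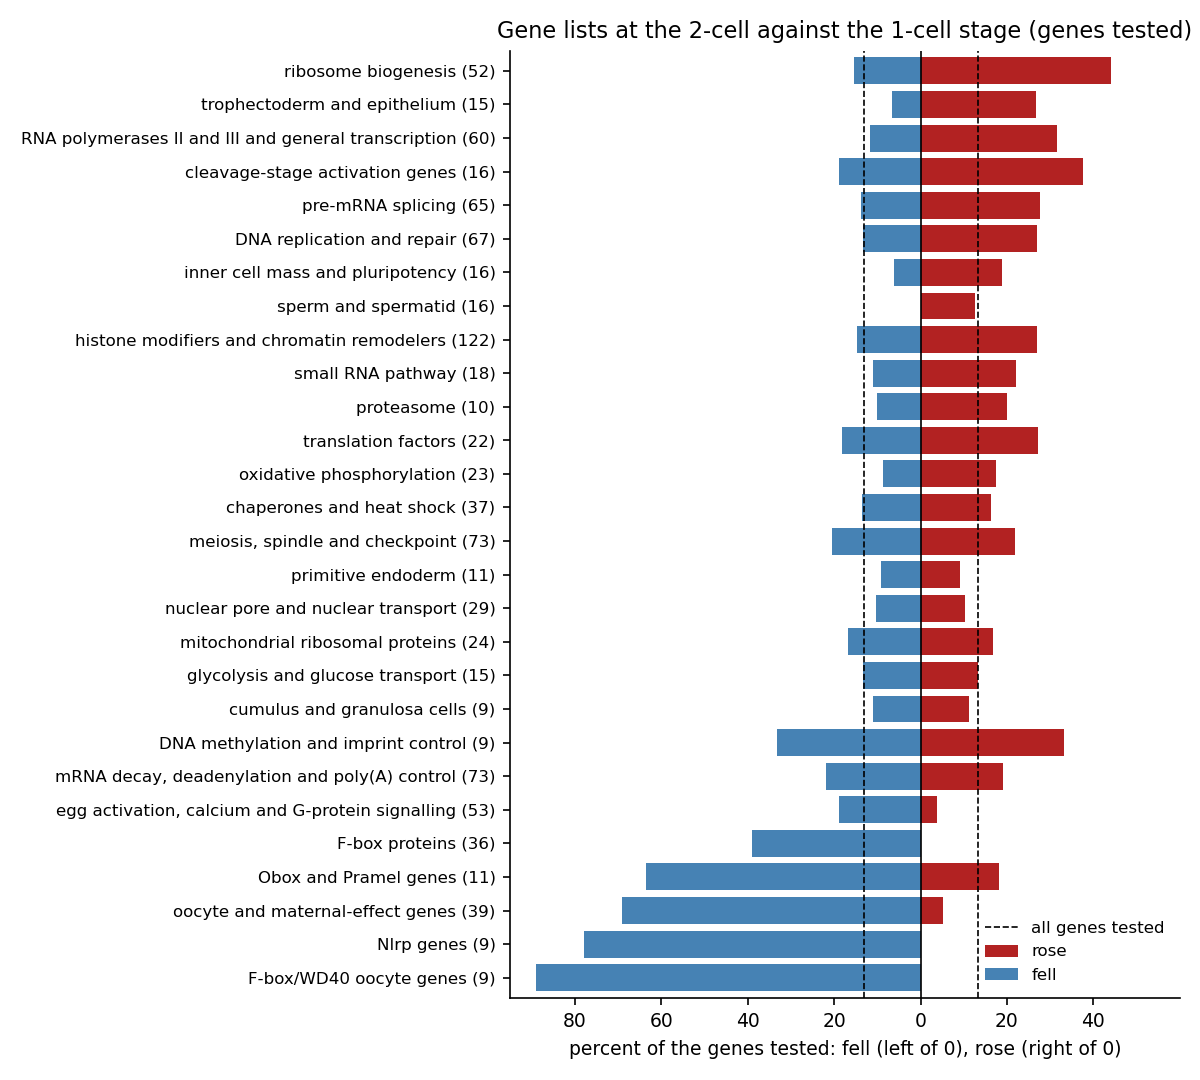
Percent of the tested genes of each list with at least 9 genes tested, and of 4 families, that rose (right of 0) and fell (left of 0) at the 2-cell against the 1-cell stage, with the number of genes tested in brackets and dashed lines at the percentages of all genes tested, 13.4 and 13.0. Of those plotted, ribosome biogenesis reaches furthest to the right, with 44.2% risen, and the Fbxw, Nlrp and maternal lists furthest to the left.

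Some genes of egg activation and G-protein signalling fell, but the median change of the list was 0.01, against 0.02 for all genes. Of 53 genes 10 fell (18.9%) and 2, Trpm7 and Camk2d, rose, and without replicate 2 of the 1-cell or of the 2-cell stage none rose. Without replicate 1 of the 2-cell stage 4 rose, and under median scaling 15 fell and 1 rose. Rgs2, a regulator of G-protein signalling that restrains calcium release in the egg before fertilization, had very even 1-cell arrays, 13973, 14438, 14787 and 15511, and read 1091, 414, 814 and 671 at the 2-cell stage (-4.34 ± 0.27 SE, adjusted p = 1.10e-11), while the 1 other tested probe set of the gene was not called. Atp2b1, a calcium pump of the plasma membrane, fell from between 1267 and 1765 to between 325 and 384. Astl, the protease ovastacin that cleaves the egg coat after fertilization, fell from between 2509 and 2644 to between 893 and 1078.

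Factors of mRNA decay and poly(A) control changed in both directions. Of 73 genes 14 rose (19.2%) and 16 fell (21.9%), and under median scaling 8 rose and 22 fell. Within the CCR4-NOT deadenylase complex Cnot11 fell from 4175.5, 4420.2, 4412 and 3723 to 713, 789, 946 and 1082 (-2.23 ± 0.18 SE, adjusted p = 1.13e-09), whereas Cnot10 rose from between 678 and 796 to between 1248 and 1348 (0.76 ± 0.15 SE, adjusted p = 4.36e-04). Tent5c, a poly(A) polymerase, fell from between 2041 and 2834 to between 432 and 661. Cpsf6, of the cleavage factor that sets the site of polyadenylation, rose from between 249 and 356 to between 1678 and 2852, and 1 of the 5 other tested probe sets of the gene was called, also higher. Pabpn1, the general nuclear poly(A)-binding protein and relative of Pabpn1l, read 460.2, 536, 635 and 697 and then 993.5, 594, 805 and 602, with overlapping arrays and no call (adjusted p = 0.210). So the 2 relatives had different courses on this array, although the difference between them was not tested.

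In the small RNA pathway 4 of 18 genes rose and 2 fell. Drosha, which cuts primary miRNAs, rose from between 282 and 709 to between 1653 and 2070.4. Of the Argonaute genes, which bind small RNAs, Ago2 rose from between 54.5 and 159 to between 239.7 and 440.4 (1.69 ± 0.23 SE, adjusted p = 3.41e-06), and Ago1, Ago3 and Ago4 changed by 0.44, 0.09 and -0.38 with adjusted p of 0.279, 0.838 and 0.215. The falls were of Tdrd5, from between 582 and 1045 to between 214 and 245, and Tdrd12, from between 1087 and 2157 to between 240.3 and 608, both Tudor proteins of the piRNA pathway. Without s_at and x_at probe sets 2 genes of this list rose.

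Cell-cycle genes moved in both directions in about equal number. Of 73 genes of meiosis, spindle and checkpoints 16 rose (21.9%) and 15 fell (20.5%). Bub1b, the spindle checkpoint kinase BubR1, read 19926, 23179, 17158 and 11596.5 and then 598, 525, 966 and 432 (-4.81 ± 0.25 SE, adjusted p = 2.48e-13). Chek1, the checkpoint kinase of DNA replication, is counted not in this list but with the replication and repair genes below. It read 1742, 1676, 1821 and 1467 and then 115, 33.2, 50.6 and 86.9 (-4.30 ± 0.27 SE, adjusted p = 1.10e-11). Sgo2a, the protector of cohesin in meiosis, fell from between 758 and 1128 to between 201 and 306, and Cenpj, of the centrioles, from between 2272 and 2973 to between 653 and 758. Ccne1, the cyclin that drives entry into S phase, rose from 317, 215, 358 and 389 to 4334, 4173, 3839 and 5751 (3.75 ± 0.19 SE, adjusted p = 3.06e-13), and Cdc25c, the phosphatase that drives entry into mitosis, from between 74.0 and 149 to between 956 and 2060.4, both on x_at probe sets. Mad2l1bp, which silences the spindle checkpoint, rose from between 639 and 870.1 to between 4539.6 and 5339.

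Of the DNA replication and repair genes more rose than fell, with 18 of 67 up (26.9%) and 9 down (13.4%), and 16 and 13 under median scaling. Dscc1, of an alternative clamp loader, read 4.3, 70.5, 59.4 and 26.6 and then 483, 458, 508 and 466 (3.22 ± 0.29 SE, adjusted p = 6.41e-09), after an oocyte mean of 774. Ercc1, of a repair nuclease, was lowest at the 1-cell stage as well, with 570.0 in the oocyte, 61.1 to 164 at the 1-cell stage and 835 to 1464 at the 2-cell stage, although neither of its 2 other tested probe sets was called. Atm, the kinase of double-strand breaks, started low in the oocyte as well, at 24.8, and went from between 12.1 and 35.2 to between 163 and 319.8. The falls after that of Chek1 were led by Rad18, a ubiquitin ligase of translesion synthesis, from 1048, 858, 1021 and 809 to 281, 84.7, 37.7 and 52.9, with replicate 1 again the highest 2-cell array. Palb2, the partner of BRCA2, fell from between 1742 and 2796 to between 489 and 924.

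Subunits of a single complex could go opposite ways. In prefoldin, the chaperone that hands actin and tubulin to their folding chamber, Pfdn6 read 176.5, 223, 261 and 282 and then 1794, 1733, 2571 and 2441 (3.07 ± 0.18 SE, adjusted p = 3.86e-12), Pfdn4 read 13556, 14006, 12867 and 8586 and then 2148, 1313.5, 1411 and 1270.5 (-2.99 ± 0.22 SE, adjusted p = 1.30e-10), and Pfdn5 fell from between 471 and 584 to between 262 and 392. For Pfdn6 the oocyte mean was 1836, so that its 1-cell level was the low one. In the proteasome Psmb5, a catalytic subunit, rose from between 249 and 394 to between 1668 and 2668 and Psmc5, an ATPase of the cap, changed by -0.91 (adjusted p = 0.00412) with overlapping arrays. Of 24 mitochondrial ribosomal proteins 4 rose and 4 fell, among them Mrpl43 from between 17.4 and 37.7 to between 494 and 774 and Mrps6 from between 367 and 457 to between 1793 and 2655, and in the other direction Mrpl9 from between 1310.3 and 2052 to between 507 and 684.5 and Mrpl44 from between 91.2 and 188 to between 15.5 and 18.6. Their shares of 16.7% each lie near the background. In oxidative phosphorylation 4 of 23 rose and 2 fell, with Cox11 at 1.74, Sdhaf3 at 1.88 and Ndufc2 at -1.13.

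Of 15 genes of glycolysis and glucose transport 2 rose and 2 fell, a share of 13.3% in each direction that lies near the background. Pdp1, an activating phosphatase of pyruvate dehydrogenase, read 1138, 1217, 1061 and 924 and then 373.5, 294.5, 292.5 and 320.3 (-1.70 ± 0.17 SE, adjusted p = 4.66e-08), whereas Pdp2, with the same activity, read 98.0, 56.4, 151 and 239.8 and then 519, 785, 838 and 566 (2.27 ± 0.30 SE, adjusted p = 2.62e-06). Pdhx, a structural subunit of the same complex, fell from between 1769 and 3299.9 to between 647 and 1685. Tigar, a phosphatase that lowers glycolysis, rose from between 81.3 and 189 to between 1332.5 and 1861.5 with both other tested probe sets in the same direction. In the cholesterol list none of 6 genes rose and 4 fell: Hsd17b7 (-2.23), Stard4 (-1.68), Insig1 (-1.31) and Mbtps2 (-0.88), the last not called after quantile normalization (adjusted p = 0.0528). Among solute carriers, 19 of 122 rose (15.6%) and 16 fell (13.1%), and under median scaling 13 rose and 18 fell. Slc19a3, a thiamine transporter, had the largest of these rises, from 144, 125, 127 and 144 to 3580.0, 3385, 2928 and 3918, and Slc25a31, the ATP carrier of germ cells, fell from between 1763.5 and 2406 to between 359 and 541.

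Among zinc finger proteins the calls were near the background, with 35 of 232 risen (15.1%) and 31 fallen (13.4%). Zfp383 fell from between 1710.5 and 2676 to between 139 and 225.5, Zfp957 from between 2638 and 4114 to between 264 and 417 and Zfp449 from between 798 and 1158 to between 120.4 and 212. Other regulators and signalling genes stood among the 20 largest falls. Jag1, a ligand of Notch receptors, read 7913, 5680.0, 4875 and 3246.5 and then 824, 564.5, 493 and 384 (-3.20 ± 0.32 SE, adjusted p = 3.88e-08). Mxd1, which competes with MYC for their shared partner MAX, read 2231, 3218, 2602 and 1788 and then 288, 277, 172 and 183 (-3.31 ± 0.26 SE, adjusted p = 5.26e-10). Insm1, a zinc finger repressor of endocrine and nerve cells, read 3670.1, 2486, 3051 and 1116 and then 475, 199, 170.4 and 195. Both stages of Insm1 hold an array that stands apart, replicate 4 below the other 1-cell arrays and replicate 1 above the other 2-cell arrays, and the groups still do not overlap.

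The rest of these falls covered unrelated functions. Ccdc69, a protein of the spindle midzone, was measured by 2 called probe sets, which read 3073, 3265, 3135 and 1666.5 and 11676, 12294, 13356 and 6068.5 on the 1-cell arrays. On the 2-cell arrays they read 277, 184, 236 and 120.3 and 2694, 3061, 2009.6 and 2270.3, with replicate 4 the lowest 1-cell array on both. Bbs4, of the cilium transport complex BBSome, fell from between 6626 and 8650.3 to between 566 and 955, and none of the 3 other tested probe sets of the gene was called. Rassf4, Nol4 and Galnt9 changed by -3.66, -3.18 and -3.15. Galnt9, an enzyme of O-glycosylation, ended between 7.8 and 9.6 on all 4 2-cell arrays, near the bottom of the scale.

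Several probe sets of a gene did not always move together. Of 1951 genes with 2 or more tested probe sets other than of the x_at type, 316 had 2 or more called, and in 258 of these all calls ran one way. In 58, or 18.4% of the 316, they ran both ways, and in 22 of these both changes were at least 2-fold. Genes of many lists above are among the 58, and each list counts a gene by its brightest probe set only. Troap, a protein of the spindle, had a probe set that read 74.6, 75.6, 98.8 and 118 and then 529, 435, 326 and 430.1 and another that read 94.1, 496, 490.3 and 575 and then 60.2, 82.3, 69.8 and 67.5. On the second, replicate 1 of the 1-cell stage lay near the 2-cell values. Slc16a10, an aromatic amino acid transporter, had changes of 2.17 and -1.88. Gtpbp10, a mitochondrial GTPase, read 98.4, 196, 178 and 203.5 and then 592, 543, 488 and 491 on one probe set and 968, 984, 825 and 609 and then 158, 88.1, 96.1 and 119 on the other. The histone chaperone gene Spty2d1 changed by 1.70 and -1.95, the tRNA methyltransferase gene Trmt13 by 1.72 and -1.48, and the deubiquitinase gene Otud3 by 1.47 and -1.55. Which transcript forms these probe sets detect is not known here. Of 40 other genes named here that were called and have further tested probe sets, all further ones were called the same way for 13, some for 6 and none for 21: Ago2, Bbs4, Camk2d, Cdk19, Cnot11, Dscc1, Ercc1, Hells, Hsd17b7, Ndufc2, Nol4, Odf2, Pdp1, Rad18, Rassf4, Rbm39, Rgs2, Riok1, Smyd3, Utp14a and Zfp383. For Ppm1a, a phosphatase of stress kinases, all 5 tested probe sets were called higher with different sizes: the probe set with the largest change read 20.8 to 51.4 and then 2173 to 3352, and another 2070.3 to 3336 and then 7419.7 to 8325.

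**Figure D5:**
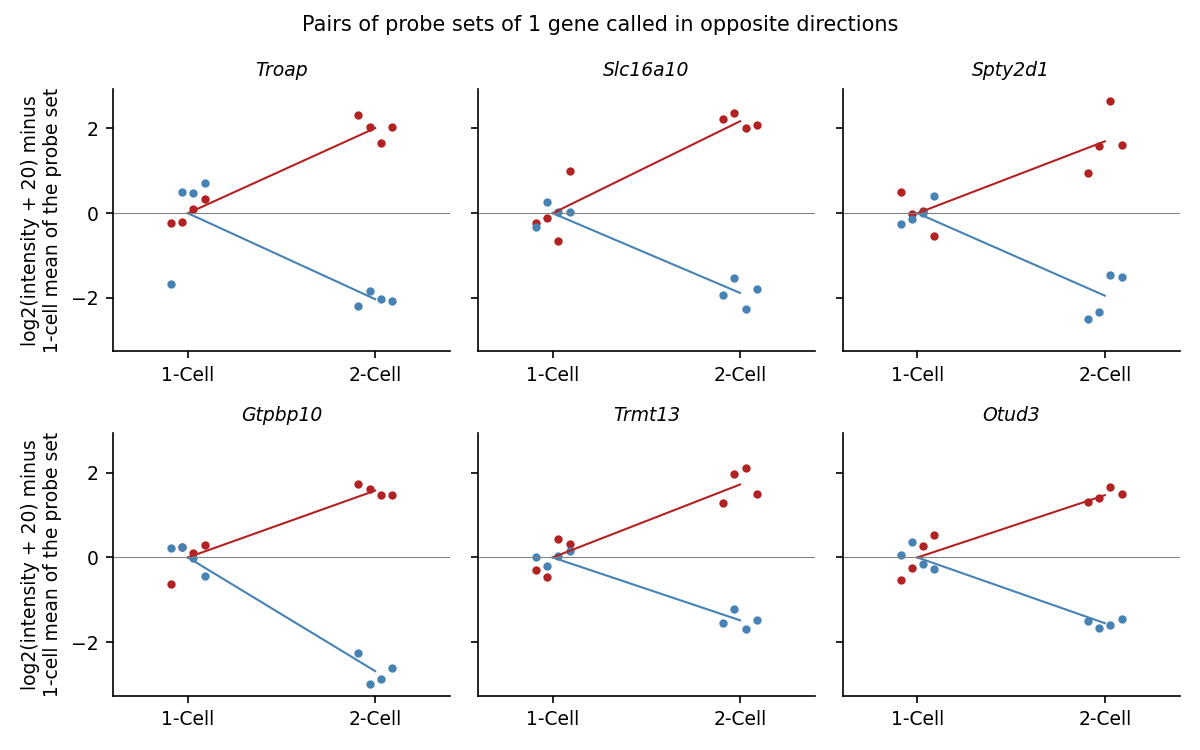
Log2(intensity + 20) minus the 1-cell mean of the same probe set, for 6 genes with 1 probe set called higher (red) and another called lower (blue) at the 2-cell stage; points are the 4 arrays of a stage and lines join the stage means. Each probe set is shown against its own 1-cell mean, since levels of different probe sets share no scale, and the changes run from 1.47 to 2.17 for the higher and from -1.48 to -2.68 for the lower ones.

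Lists of the later lineages differed in how the 1-cell and 2-cell levels compared with the blastocyst. Summed over 16 genes of trophectoderm and epithelium, intensities were 2194 to 2978 on the 1-cell arrays, 2436 to 2721 on the 2-cell arrays and 25637 to 34840 on the blastocyst arrays. Of 15 of these genes tested 4 rose and 1 fell, and the risers stayed low, such as Ocln, of tight junctions, at 67.6 to 181 and Efhd2 at 52.1 to 178 on the 2-cell arrays. The 16 genes of the inner cell mass and pluripotency summed to 5642 to 7812, 5467 to 6540 and 7769 to 15686 in the same order, and the 11 of the primitive endoderm to 2496 to 3459, 1882 to 2679 and 2063 to 2476, with 1 of the latter risen and 1 fallen. Of the 16 genes of the inner cell mass and pluripotency 3 rose and 1 fell. L1td1, an RNA-binding protein of pluripotent cells, read 48.4, 5.5, 33.4 and 11.7 and then 879, 935, 930.0 and 969.9 (4.52 ± 0.34 SE, adjusted p = 2.96e-10), with a mean of 410.0 at the 8-cell stage and 6305 in the blastocyst. Il6st, the receptor subunit gp130, fell from between 900.0 and 1574 to between 200.2 and 272. Without replicate 4 of the 1-cell stage 3 genes of this list fell.

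Markers of other cells were checked on the same arrays. The 12 cumulus and granulosa genes summed to 1709 to 2291 at the 1-cell stage and 3463 to 3983 at the 2-cell stage, and of 9 tested 1 rose and 1 fell. The rise was that of Amhr2, the receptor of anti-Mullerian hormone, from 119, 159, 207.5 and 182 to 1850.0, 1794, 2402 and 2165 on an x_at probe set, with 1 other tested probe set in the same direction. The mean of Amhr2 alone went from 167 to 2053, while the mean sum of the list went from 2012 to 3640. The fall was that of Cyp11a1, a steroid synthesis enzyme, by -1.05 on the log2 scale, and it was lost in the fit over the 8 arrays and without replicate 2 of the 1-cell stage or replicate 4 of the 2-cell stage. The 23 sperm genes summed to 2170 to 2421 and 2210 to 2723, and of 16 tested Catsper2 (1.61) and Odf2 (1.28) rose, the latter not under median scaling or quantile normalization, nor without replicate 1 or 3 of either stage, when 1 gene rose. Of 3 blood and reproductive tract genes on the array 1 was tested, H2-Aa, of antigen presentation, which read 229 to 597 at the 1-cell stage and at most 129 at the 2-cell stage on an x_at probe set. On all 4 1-cell arrays 6 of the 12 cumulus genes lay at or above the table median and 3 below it. Of the 23 sperm genes 6 lay at or above it and 10 below, and of the 3 blood and tract genes 1 and 2. The part of other cells in the results was not tested.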

How the data were processed

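Values were taken from the authors' deposited table of linear intensities, 1 per probe set and array, with 22575 probe sets of which 64 are controls. The summarization software was not given in the sources used here. Trimming 2% at each end leaves the same mean on every array, so the authors had scaled the arrays, and no further normalization was applied. Stages were taken from the sample titles. Names came from the annotation of the array platform and were updated against the GRCm38.p6 gene table, which held 14486 of the 14661 probe sets with 1 symbol, and no array coordinates are given because no build is named for them. Probe sets at or above 82.6, the table median, on at least 4 arrays were tested on log2(intensity + 20) with limma 3.58.1 in R 4.3.3, over all 20 arrays, with an intensity trend. The number of arrays limits the precision. The script was checked on simulated data. No pair of arrays held the same values. Named genes are from the 20 largest rises and 20 largest falls that carry 1 symbol, are no x_at probe sets and have arrays that do not overlap. Others are up to 4 called genes per direction of each list by smallest p, genes with probe sets called in opposite directions, and members of paralogue pairs, and not all genes that the rule allows are named. The members and lists were chosen with earlier results of these data known. Alternatives were other pseudocounts, filters, scalings, fits, probe set types and arrays left out.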

Additional observations from a re-analysis of the deposited data

Results flagged for a closer look

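Of 300 groups of 4 arrays, 2 stages for each of the 150 probe sets named, 13 held an array far from the other 3 by Dixon's ratio, where chance alone flags about 1 in 20 groups. In 6 the array was replicate 1 of the 2-cell stage, and in each it stood above the others and thus nearer to the 1-cell level: Nlrp4b at 998 with the next at 581, Insm1 at 475 with the next at 199, D6Ertd527e at 2447 with the next at 1770.3, Fbxw18 at 2867 with the next at 1816, Pfdn4 at 2148 with the next at 1411, and Pfdn5 at 392 with the next at 268. In 3 the array was replicate 4 of the 1-cell stage, below the others: Ccdc69 at 1667 with the next at 3073, Cnot10 at 678 with the next at 784, and Smyd3, a SET domain methyltransferase that fell, at 1144 with the next at 1515. The other 4 were Wdr3, where replicate 3 of the 2-cell stage read 3180.1 and the next 2234, Tet3, where replicate 1 of the 1-cell stage read 690.3 and the next 329, and replicate 2 of the 1-cell stage for Cyp11a1, at 219.8 above the next at 146, and for H2-Aa, at 229 below the next at 565.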

How the results depend on the processing

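The 4 counts of probe sets stayed within 1.5 times of the values reported under every alternative but 1: with a pseudocount of 80, 784 rather than 1413 probe sets were higher by at least 2-fold, and 689 rather than 988 lower. The other alternatives were a pseudocount of 5, no filter, a filter on the 8 arrays or at the 75th percentile, median scaling, quantile normalization, a fit over the 8 arrays, no trend, array weights, a replicate block, probe sets of the x_at and s_at types left out, and each array left out. Leaving out 1 array gave 1526 to 1819 higher and 1258 to 1400 lower probe sets, and 1257 to 1451 and 927 to 1031 by at least 2-fold. Quantile normalization gave 1567 higher and 1424 lower, and array weights 2120 and 1633. Same-numbered arrays did not deviate together, with correlations of -0.027 to 0.042. Such correlations cannot show whether same-numbered arrays came from 1 collection, which the labels do not say. The replicate block gave 1833 higher and 1403 lower. No call shared with an alternative changed direction, and 81.9% to 98.6% of calls were shared. Of 92 list and family counts 55 stayed within 1.5 times under every alternative. Of 143 called probe sets named, 135 kept their call throughout and 8 lost it under 1 or more: Camk2d, Cyp11a1, Hells, Mbtps2, Odf2, Slbp, Trpm7 and Uhrf2, with adjusted p of up to 0.104. Signal over background limits the lowest levels, for which no detection calls are at hand. The cause of these differences was not tested.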
